A study of Mus musculus with 11 samples.

Results

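The Dppa genes (developmental pluripotency associated) studied here were Dppa2, Dppa3, Dppa4 and Dppa5a. They are the 4 entries with these names among the 23265 gene symbols of the FPKM table and were picked with earlier results of the same libraries in view, because Dppa3 was higher in the Cbx6 knockdown than in the control. Their levels in the knockdown and the control are therefore described without a test. The cells were mouse embryonic stem cells (ESCs) of the E14Tg2A line, grown without feeders in serum and LIF. RNA-seq was made from 2 libraries with a control shRNA (shCtl) and 2 libraries with an shRNA against Cbx6 (shCbx6), a chromodomain subunit of Polycomb repressive complex 1 (PRC1). The shRNAs were delivered with lentiviral pLKO vectors and infected cells were selected with an antibiotic, in control and knockdown alike. The labels do not say which Cbx6 shRNA was used or whether the 2 libraries of a group came from separate infections, so p-values measure the spread between these libraries, which may be technical. ChIP-seq peak lists were available for CBX6 (anti-HA, 2 replicates, in a CRISPR-tagged line grown from a single cell), for CBX7 and for RING1B, 1 list each. CBX7 is a chromodomain subunit of PRC1 like CBX6, and RING1B is its E3 ligase. The HA ChIP in parental ESCs and the IgG ChIPs were not analysed here.

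The members of this family share a name given for their expression in pluripotent cells and do not share a common protein fold. DPPA2 and DPPA4 carry SAP domains, form a heterodimer and bind DNA at developmental and early embryonic genes. DPPA3, also called Stella or PGC7, is a small protein of oocytes, preimplantation embryos and primordial germ cells that protects the maternal genome from demethylation and binds UHRF1, the factor that recruits DNMT1. In ESCs grown in serum, Dppa3 is known to be on in some cells and off in others. DPPA5A, also called ESG1, is a KH-domain RNA-binding protein and an abundant ESC transcript. Germline genes are known targets of variant PRC1 and of promoter DNA methylation in ESCs.

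Cbx6, the knockdown target, was at 17.4 and 14.9 FPKM in shCtl and at 9.53 and 5.4 FPKM in shCbx6. Both knockdown libraries were below both controls, and the ratio of the means was 0.462. The libraries were alike in depth as far as the smallest steps between low FPKM values show, at 0.96 to 1.09 of the first shCtl library, and 11102 to 11310 genes reached 1 FPKM. The number of reads behind each value is unknown, so no counting interval is given.

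Dppa3 was the Dppa gene with the large difference. It was at 2.36 and 2.19 FPKM in the shCtl libraries and at 27 and 57.1 FPKM in the shCbx6 libraries. The control values lay close together, 1.08-fold apart, whereas the 2 knockdown values were 2.12-fold apart, and both were far above both controls. The shCtl mean was 2.27 ± 0.124 FPKM, and that of shCbx6 was 42 ± 21.3 FPKM (SD, n = 2 each), a ratio of 18.5. On the log2(FPKM + 1) scale, which understates changes of low genes, the difference was 3.62 (SE 0.349). Against the control library of the same number the fold was 11.4 for replicate 1 and 26.1 for replicate 2, though the labels do not say that equal numbers mark pairs. The shCbx6 library with more Dppa3 was also the one with less Cbx6, but 2 libraries cannot show a relation between the levels. In rank among all symbols, Dppa3 stood at places 9680 and 9860 in shCtl and at places 3063 and 1654 in shCbx6. By ratio of means it was 48th in order of increase among the 11577 genes whose mean reached 1 FPKM in shCtl or shCbx6, called tested genes from here on. In these bulk libraries, more cells with Dppa3 and more Dppa3 RNA per cell cannot be told apart.

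Dppa2 and Dppa4, the heterodimer partners, differed far less than Dppa3. Dppa2 was at 82.3 and 81.9 FPKM in shCtl and at 64.8 and 66 FPKM in shCbx6. Both knockdown values were below both controls, with means of 82.1 ± 0.327 and 65.4 ± 0.881 FPKM (SD, n = 2 each), a ratio of 0.796 and a log2 difference of −0.32 (SE 0.134). Dppa4 was at 109 and 105 FPKM in shCtl and at 116 and 101 FPKM in shCbx6. Its groups overlapped, and its means of 107 ± 2.92 and 108 ± 10.5 FPKM (SD, n = 2 each) gave a log2 difference of 0.02 (SE 0.151). The Dppa4 level was 1.32 and 1.28 times that of Dppa2 in shCtl and 1.79 and 1.53 times in shCbx6, so that the ratio of the partners was higher in both knockdown libraries.

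Dppa5a was by far the most abundant member, at 4580 and 5397 FPKM in shCtl and at 4544 and 3601 FPKM in shCbx6. It ranked 8th and 3rd of all symbols in the controls and 15th and 12th in the knockdown. The means were 4989 ± 578 and 4072 ± 667 FPKM (SD, n = 2 each), with a ratio of 0.816 and a log2 difference of −0.30 (SE 0.255). This difference was −0.57 after quantile normalization, −0.47 without shCbx6 replicate 1, −0.18 without shCtl replicate 2 and −0.13 without shCbx6 replicate 2. The groups did not overlap, but the lower control and the higher knockdown library, 4580 and 4544 FPKM, were almost level. Retrotransposed and tandem copies of Dppa5a and Dppa3 exist in the mouse genome, and the authors ran TopHat to discard reads without a unique place, so reads shared with the copies may be missing from the values of these genes.

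FPKM values are scaled to transcript length, so levels can be set side by side between genes. In shCtl the order was Dppa5a, Dppa4, Dppa2 and Dppa3 in both libraries. The same order held in both shCbx6 libraries, but the distance to Dppa3 shrank. Dppa5a was 1939 and 2468 times as high as Dppa3 in shCtl and 168 and 63.1 times as high in shCbx6. Dppa2 was 34.9 and 37.4 times as high as Dppa3 in shCtl, and 2.4 and 1.16 times as high in shCbx6, so that in the second knockdown library Dppa3 came close to Dppa2. Dppa1, a further gene of this name, was listed at 0 in both shCtl libraries and the first shCbx6 library and at 0.013 FPKM in the second.

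**Figure D1:**
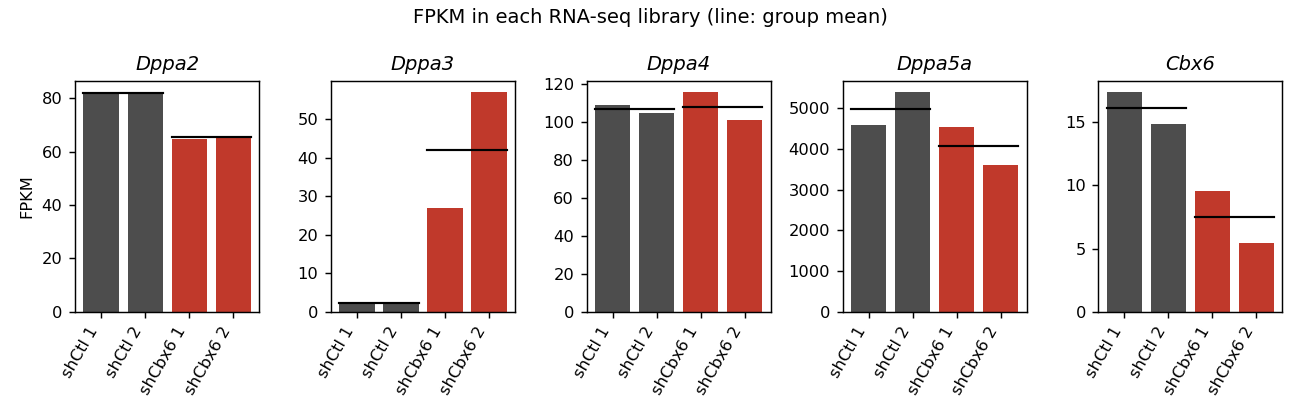
FPKM (vertical axis, linear, a separate scale per gene) of Dppa2, Dppa3, Dppa4, Dppa5a and Cbx6 in each of the 4 libraries, shCtl in grey and shCbx6 in red, with the group mean as a line. Dppa3 goes from 2.36 and 2.19 to 27 and 57.1 FPKM while Cbx6 goes from 17.4 and 14.9 to 9.53 and 5.4 FPKM.

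Counted together, 1 of the 4 members, Dppa3, was at least 1.5-fold higher in shCbx6, the fold the study used, and no member was at least 1.5-fold lower. Over all tested genes 7.64% were higher and 6.56% lower by this fold. Without overlap between the groups, 1 member was higher and 2 were lower, against 18.9% higher and 24.3% lower of all tested genes. Since the members were picked on this contrast, nothing is read from these counts.

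The genes with the most similar profile over the 4 libraries were found by the Euclidean distance between log2(FPKM + 1) values centred on each gene's mean. For Dppa3 they were Mir1199, Gm12238, Pim2, Car4 and Mir669h, at distances of 0.285 to 1.16. Pim2, a serine/threonine kinase of the PIM family, was at 5.82 and 7.44 FPKM in shCtl and at 36.6 and 82 FPKM in shCbx6. Car4, a membrane-bound carbonic anhydrase, was at 0.276 and 0.381 FPKM in shCtl and at 4.53 and 10.6 FPKM in shCbx6. Like Dppa3, both were higher in the second knockdown library than in the first. Both controls listed Mir1199, Gm12238 and Mir669h at 0, and their values may rest on few fragments, whose number is unknown.

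For Dppa2 the nearest profiles were A230073K19Rik, Spag5, Papolg, Fam178a and Lrp12, at distances of 0.0279 to 0.0379, all lower in shCbx6 by 0.29 to 0.34 on the log2 scale. For Dppa4 they were Fam168b, Rbm12b2, Ulk1, Kazn and Isca2, at 0.0156 to 0.0306, with overlapping groups in each. For Dppa5a they were 3110001I22Rik, Pnldc1, Tmub1, Cklf and Pigyl, at 0.0309 to 0.0642. The shorter distances of these 3 members came with small differences, since any gene that moves little lies near them. No gene was near to Dppa3 in this sense, its closest being 0.285 away.

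In the genome (mm9), Dppa3 lies on chromosome 6 at 122576428 to 122580290 on the plus strand, between Gdf3 and Nanog. Dppa4 (chromosome 16, 48283848 to 48294405, plus strand) and Dppa2 (chromosome 16, 48310590 to 48319836, plus strand) are direct neighbours, 16.2 kb apart, with Morc1 downstream. Dppa5a lies on chromosome 9 at 78214859 to 78215984 on the minus strand, next to Ooep, a further KH-domain gene of the oocyte. Within 150 kb of the members the annotation held 34 other genes, of which 20 had an FPKM value and 12 were tested.

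None of the 12 tested neighbours passed limma's test at an adjusted p of 0.05, against 0.0432% of all tested genes called higher and 0.0518% called lower, while 4 had an unadjusted p under 0.05, as had 11.7% of all tested genes. Without overlap, 6 of the 12 were lower and 1 was higher in shCbx6, and 3 were at least 1.5-fold lower (shares over all tested genes 24.3%, 18.9% and 6.56%). The median log2 difference of the 12 was −0.28, against −0.01 over all tested genes. None of the 12 was at least 1.5-fold higher.

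On chromosome 6, Nanog, the homeobox pluripotency factor whose start site lies 81.1 kb downstream of that of Dppa3, was at 321 and 359 FPKM in shCtl and at 204 and 192 FPKM in shCbx6. Both knockdown values were below both controls, with a log2 difference of −0.78 (SE 0.16) and a limma adjusted p of 0.188. Gdf3, a TGF-β family ligand on the other side of Dppa3, was at 38.6 and 39.8 FPKM in shCtl and at 40.2 and 28.9 FPKM in shCbx6, with overlapping groups. Slc2a3, the glucose transporter GLUT3, was at 288 and 308 FPKM in shCtl and at 247 and 348 FPKM in shCbx6, and its groups overlapped as well. None of these 3 genes was higher than both controls in both knockdown libraries.

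Apobec1, a cytidine deaminase, was at 2.45 and 2.82 FPKM in shCtl and at 1.81 and 1.83 FPKM in shCbx6 (log2 difference −0.37, limma adjusted p = 0.474). Rimklb was at 10.5 and 9.13 FPKM in shCtl and at 8.2 and 6.18 FPKM in shCbx6 (limma adjusted p = 0.465). Mfap5 was at 1.15 and 1.31 FPKM in shCtl and at 0.734 and 2.69 FPKM in shCbx6.

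Around Dppa2 and Dppa4 the only neighbour with a value was Morc1, a germline ATPase of transposon silencing. It was at 31.2 and 30.6 FPKM in shCtl and at 22.3 and 21.2 FPKM in shCbx6, without overlap, with a log2 difference of −0.49 (SE 0.129) and a limma adjusted p of 0.264. The difference had the direction of that of Dppa2.

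Around Dppa5a, Ooep, a component of the subcortical maternal complex of the oocyte, was at 66.7 and 82.6 FPKM in shCtl and at 52.4 and 46 FPKM in shCbx6 (log2 difference −0.59, SE 0.172, limma adjusted p = 0.304). Ddx43, a germline helicase, was at 8.19 and 7.33 FPKM in shCtl and at 5.33 and 3.86 FPKM in shCbx6 (log2 difference −0.66, SE 0.181, limma adjusted p = 0.279). Both were lower in both knockdown libraries. Mb21d1, annotated as E330016A19Rik in the gene models used here and known as the DNA sensor cGAS, was at 0.7 and 0.754 FPKM in shCtl and at 0.583 and 0.296 FPKM in shCbx6, below the level for testing. Mto1, a mitochondrial tRNA modification enzyme, was at 9.48 and 10.1 FPKM in shCtl and at 10.6 and 11.4 FPKM in shCbx6 (limma adjusted p = 0.723). Eef1a1, a translation elongation factor, was at 7434 and 8750 FPKM in shCtl and at 7901 and 7315 FPKM in shCbx6. Mir703 lies inside Eef1a1 and its FPKM of 2437 to 3600 cannot be told apart from reads of its host. The remaining genes, among them Gsta1, Gsta2, Omt2a and Omt2b, were at or close to 0 in all 4 libraries.

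**Figure D2:**
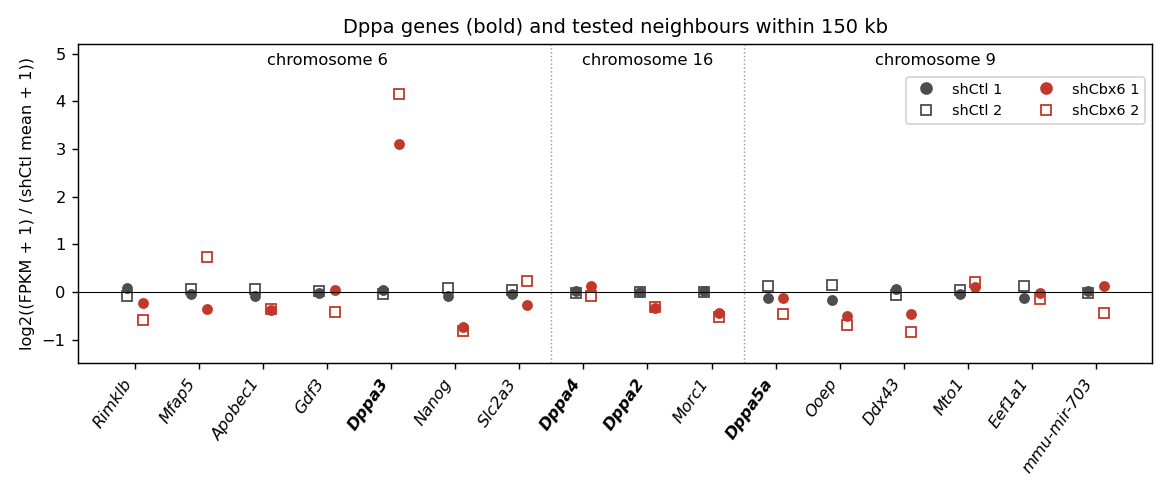
log2 of each library's FPKM + 1 over the shCtl mean + 1 (vertical axis) for the members (bold) and their 12 tested neighbours within 150 kb, ordered along each chromosome, with shCtl in grey, shCbx6 in red, circles for replicate 1 and squares for replicate 2. Dppa3 stands at 3.10 and 4.15 in the knockdown libraries while Nanog, Morc1, Ooep and Ddx43 lie below 0 in both.

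The peak lists differed between the members. Within 150 kb, Dppa3 had 18 peaks of CBX6 replicate 1, 2 of CBX6 replicate 2 and no peak of CBX7 or RING1B. Dppa5a had 11 peaks of CBX6 replicate 1 and 2 of each of the other lists. Dppa2 and Dppa4 had no peak in any list. Of all genes with coordinates, 17% had no CBX6 replicate 1 peak within this distance, 44% no CBX6 replicate 2 peak, 40.9% no CBX7 peak and 45.2% no RING1B peak. As many replicate 1 peaks as around Dppa3, or more, were found around 9.69% of genes, and as many replicate 2 peaks around 30.2%. For the counts around Dppa5a these shares were 24.8% in CBX6 replicate 1, 30.2% in replicate 2, 32.5% in CBX7 and 26.2% in RING1B.

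By the study's rule, a gene is a target if a peak lies between 2.5 kb upstream of its start and its transcription end. In CBX6 replicate 1, 2 of the 4 members were targets, Dppa3 and Dppa5a, against 56.9% of all 21921 genes. In CBX6 replicate 2 the only member was Dppa3, against 16.6% of genes. These shares were 12465 genes for replicate 1 and 3631 genes for replicate 2. Both counts are larger than the paper's number of target genes, so a target here need not be a target in the paper. Whether the paper counted these members as targets was not tested. No member was a target of CBX7 or RING1B, against 17.9% and 16.1% of genes. When peaks with a score under 100 were left out, no member was a target in replicate 1, against 38.1% of all genes, and Dppa3 remained the target in replicate 2, against 11.4%. This cut lies at a different place in each list, whose median scores were 95.34 and 155.6, and the Dppa3 peaks described next stood at like percentiles of their lists. The replicate 1 list is far longer than the others, with 21865 peaks of which 77% were in no other list, against 5103 peaks and 7.9% for replicate 2. Scores, the MACS scores deposited with the peaks, are compared only within a list.

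The CBX6 peaks nearest to Dppa3 were not the same in the replicates. The replicate 1 peak, chr6:122574217-122575170, was intergenic with its centre 1.74 kb upstream of the start site and a score of 81.84, higher than 39.4% of its list. The replicate 2 peak, chr6:122576968-122578502, had its centre 1.31 kb downstream of the start site in an intron of Dppa3 and a score of 105.7, higher than 37.8% of its list. A gap of 1797 bases separated the peaks. Neither overlapped a peak of any other list. Among the 403 replicate 2 peaks that are in no other list, the intronic peak scored higher than 91.1%, while the upstream peak scored below the median of 88.62 of the replicate 1 peaks in no other list.

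The central 300 bases of both peaks are shown because they are the regions called at Dppa3, together with those of the region at the Ddx43 start that all 4 lists share. They are read from the plus strand of mm9, with each CG dinucleotide in capitals. The first is chr6:122577585-122577884 in the Dppa3 intron, the second chr6:122574543-122574842 upstream of Dppa3, and the third chr9:78243845-78244144, which reaches into coding exons of Ddx43 and of 4930542C12Rik, a gene on the other strand.
Dppa3 intron, CBX6 replicate 2: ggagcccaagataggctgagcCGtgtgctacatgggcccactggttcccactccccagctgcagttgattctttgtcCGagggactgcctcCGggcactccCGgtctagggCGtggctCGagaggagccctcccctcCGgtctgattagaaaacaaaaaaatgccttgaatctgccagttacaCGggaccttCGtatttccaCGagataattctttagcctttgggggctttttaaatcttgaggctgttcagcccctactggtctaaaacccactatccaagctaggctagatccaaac
Dppa3 upstream, CBX6 replicate 1: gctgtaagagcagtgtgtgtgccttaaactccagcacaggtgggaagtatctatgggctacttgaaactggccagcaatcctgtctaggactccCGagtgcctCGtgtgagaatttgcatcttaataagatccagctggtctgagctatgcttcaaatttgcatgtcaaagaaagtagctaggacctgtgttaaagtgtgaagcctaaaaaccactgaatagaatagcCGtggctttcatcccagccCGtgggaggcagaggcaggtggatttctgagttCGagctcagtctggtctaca
Ddx43 start, all lists: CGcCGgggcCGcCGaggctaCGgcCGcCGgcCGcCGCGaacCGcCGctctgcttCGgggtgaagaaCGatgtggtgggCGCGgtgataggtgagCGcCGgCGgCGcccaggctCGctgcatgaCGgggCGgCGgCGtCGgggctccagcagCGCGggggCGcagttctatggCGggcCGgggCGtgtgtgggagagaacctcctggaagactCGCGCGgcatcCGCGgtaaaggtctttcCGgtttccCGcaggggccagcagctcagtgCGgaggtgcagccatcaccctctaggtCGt

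The Dppa3 regions held fewer CG dinucleotides than the median region of their lists, and the shared region held more. The intronic region held 10 and the upstream region 5, and among peaks cut to the same length 28.5% in the replicate 2 list and 20% in the replicate 1 list held fewer. The Ddx43 region held 41, more than 95.5% of the replicate 2 peaks. The medians of the lists were 11 for CBX6 replicate 1, 16 for replicate 2, 18 for CBX7 and 23 for RING1B. The E-box CACGTG and the E2F-like GCGGGA, searched on both strands as motifs known from germline promoters bound by variant PRC1, were absent from both Dppa3 regions. GCGGGA was present once in the Ddx43 region, and 24.7% to 37% of the regions of a list held it, whereas 5.47% to 7.68% held CACGTG.

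The other 17 replicate 1 peaks around Dppa3 lay along the whole interval from Rimklb to Slc2a3, and none overlapped a peak of another list. The highest score, 323.2, was that of a peak 4901 bases wide that covers Gdf3. A second strong peak, with a score of 289.2, was centred 37.08 kb downstream of the Dppa3 start, in the intergenic stretch before Nanog. At Nanog, the peak over the start site scored 162.7 and the peak centred at −4.59 kb from it scored 170.4. Both were peaks of replicate 1 only. The paper states that none of the pluripotency genes lowered by CBX6 depletion was occupied by CBX6. Slc2a3 held 7 of the 18 peaks. The second replicate 2 peak, with a score of 55.67, lay 0.96 kb upstream of the Rimklb start. The nearest RING1B peak was 171 kb and the nearest CBX7 peak 189 kb downstream of Dppa3.

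At Dppa5a the nearest replicate 1 peak was centred 1.26 kb upstream of the start, with a score of 92.71. The strongest replicate 1 peak around it, with a score of 330.3, lay between Dppa5a and Ooep, its centre at −7.40 kb from the Dppa5a start, and a weak one with a score of 51.5 was in Ooep. None of these overlapped a peak of another list. All lists met at the Ddx43 start, with scores of 229.4 in CBX6 replicate 1, 104 in replicate 2, 132.1 in CBX7 and 145.9 in RING1B. They met again at the start of Mb21d1, with 141, 1356, 2175 and 2766 in the same order. These 2 sites account for all 6 peaks of CBX6 replicate 2, CBX7 and RING1B within 150 kb of Dppa5a. The nearest of these, of RING1B, was 27.1 kb from the gene.

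Around Dppa2 and Dppa4 the nearest CBX6 peaks were inside Morc1. They lay 284 kb downstream of Dppa2 in replicate 2, with a score of 52.29, and 291 kb downstream in replicate 1, with a score of 89.42. The nearest CBX7 and RING1B peaks were 2109 kb away.

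**Figure D3:**
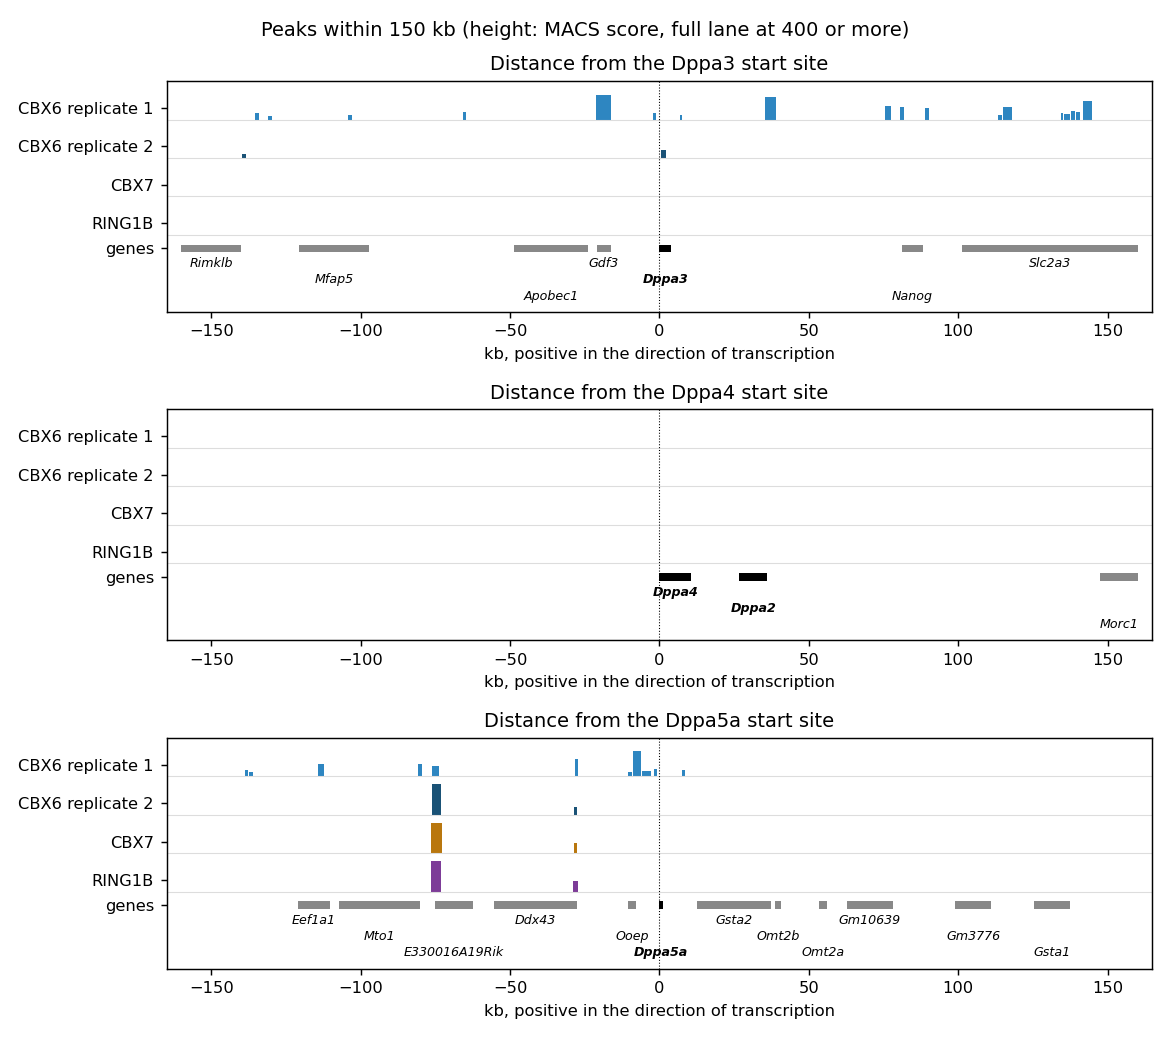
Peaks of the 4 lists (lanes) within 150 kb of the start sites of Dppa3, Dppa4 and Dppa5a, with distance in kb on the horizontal axis, bar height for the MACS score up to a full lane at 400 and genes with an FPKM value drawn below, except Mir703 inside Eef1a1 and 1 gene not reported here. Dppa3 has 18 replicate 1 and 2 replicate 2 peaks, the region of Dppa4 and Dppa2 has none, and upstream of Dppa5a all lists share the peaks at Ddx43 and E330016A19Rik (Mb21d1).

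Lists of genes around the known roles of the members were then examined. They were chosen with earlier results of these libraries known, and several genes stand on more than one list. No gene of the 7 lists passed limma's test at an adjusted p of 0.05, while between 0 and 9 per list had an unadjusted p under 0.05. Over all tested genes 11.7% had such a p, 18.9% were higher and 24.3% lower without overlap, and the median log2 difference was −0.01. With a term for the replicate number, which the labels do not name as a batch, limma called 12 of 61 list genes. The share of all tested genes called in that setting was 3.35%. Without shCbx6 replicate 1, when the remaining knockdown library is assumed to vary like the controls, limma called 11 of 63 list genes, against 3.39% of all genes tested in that setting. These were Dnmt3b, Ifitm3 and Tfap2c, which were higher, and Khdc3, Kit, Klf4, Prdm14, Tbx3, Tcl1, Tet2 and Tfcp2l1, which were lower. Leaving out any of the other 3 libraries gave no call on the lists.

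Genes that act with DPPA3 in DNA methylation had no common direction. Of 11 tested genes of the DNA methylation machinery, 1 was higher and 4 were lower in shCbx6 without overlap, with a median log2 difference of −0.12. This median was −0.02 without shCbx6 replicate 1, −0.04 without shCtl replicate 1 and −0.21 without shCtl replicate 2. Uhrf1, whose protein DPPA3 binds, was at 169 and 157 FPKM in shCtl and at 139 and 139 FPKM in shCbx6 (limma adjusted p = 0.617). Dnmt1 was at 89.3 and 81.4 FPKM in shCtl and at 78.9 and 75.2 FPKM in shCbx6 (limma adjusted p = 0.763). Dnmt3b, a de novo methyltransferase, was at 31.8 FPKM in both shCtl libraries and at 90.9 and 192 FPKM in shCbx6 (log2 difference 2.02, SE 0.354, limma adjusted p = 0.147). Tet2, a dioxygenase that oxidises 5-methylcytosine, was at 29.8 and 17.2 FPKM in shCtl and at 10.2 and 4.67 FPKM in shCbx6 (log2 difference −1.57, SE 0.402, limma adjusted p = 0.254).

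Among 12 tested primordial germ cell genes, the cells in which Dppa3 is a classical marker, 2 were higher and 3 lower without overlap, with a median log2 difference of −0.10. This median was −0.20 without shCbx6 replicate 1 and −0.03 without shCbx6 replicate 2. Tfap2c, a germ cell specification factor, was at 2.84 and 2.21 FPKM in shCtl and at 7.41 and 9.04 FPKM in shCbx6 (log2 difference 1.39, SE 0.176, limma adjusted p = 0.0895). Ifitm3, also known as fragilis, was at 62.3 and 67.5 FPKM in shCtl and at 166 and 182 FPKM in shCbx6 (log2 difference 1.41, SE 0.148, limma adjusted p = 0.0754). Kit, the receptor of stem cell factor, was at 19.3 and 18 FPKM in shCtl and lower in shCbx6, at 8.13 and 7 FPKM (log2 difference −1.20, SE 0.142, limma adjusted p = 0.0872). Prdm1, a regulator of germ cell specification, was at 2.2 and 2.14 FPKM in shCtl and at 2.64 and 1.41 FPKM in shCbx6.

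A list of subcortical maternal complex genes and KH-domain genes was taken for Dppa5a, which shares the KH domain with Ooep and Khdc3 but not with members such as Tle6, a co-repressor of the Groucho family. Of its 10 genes, 4 were tested and 3 were lower without overlap. Khdc3, also known as Filia, was at 8.6 and 15 FPKM in shCtl and at 2.28 and 2.22 FPKM in shCbx6 (log2 difference −1.93, SE 0.262, limma adjusted p = 0.102). Tle6 was at 4.62 and 3.95 FPKM in shCtl and at 3.45 and 2.83 FPKM in shCbx6 (limma adjusted p = 0.495). With Ooep, these were the 3 lower genes, and the median of the list was −0.47.

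Of 13 tested germline genes known as targets of variant PRC1, 3 were higher and 1 lower without overlap, with a median log2 difference of 0.31. The median was 0.01 without shCbx6 replicate 2 and 0.58 without shCbx6 replicate 1. Mael, a piRNA pathway gene, was at 5.81 and 7.25 FPKM in shCtl and at 8.36 and 15.4 FPKM in shCbx6 (limma adjusted p = 0.431). Taf7l was at 0.541 and 0.5 FPKM in shCtl and at 0.657 and 1.92 FPKM in shCbx6 (limma adjusted p = 0.591). Stag3, a meiotic cohesin, was at 24.7 and 21.8 FPKM in shCtl and at 13.3 and 13.6 FPKM in shCbx6 (log2 difference −0.75, SE 0.137, limma adjusted p = 0.164). Dppa3 was picked for its rise in this contrast, so its 18.5-fold ratio is not compared with these genes.

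Genes of the 2-cell-like state, which DPPA2 and DPPA4 are known to activate through Dux, were low in all libraries. Of 27 listed genes 23 were in the table and 4 were tested, Zscan4c, Zscan4d, Zscan4e and Zscan4f, all with overlapping groups. The summed level of the list was 9.3 and 4.39 FPKM in shCtl, and in shCbx6 it was 4.1 and 16.8 FPKM. The median log2 difference of 0.26 became −0.47 without shCbx6 replicate 2, 0.77 without shCbx6 replicate 1, 0.53 without shCtl replicate 1 and 0.00 without shCtl replicate 2. Dux itself stayed between 0.0347 and 0.191 FPKM. Many genes of this list are near-identical copies, so that their values are uncertain.

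Naive pluripotency genes, with which Dppa3 is often grouped in ESCs, were mostly lower in shCbx6, where Dppa3 was higher. Of 14 tested genes 10 were lower without overlap and none was higher, and 9 had an unadjusted p under 0.05. At least 1.5-fold lower were 7 of the 14, against 6.56% of all tested genes. The median log2 difference was −0.65 and lay between −0.93 and −0.47 when each library was left out in turn. Tbx3 was at 34.3 and 34 FPKM in shCtl and at 13.1 and 6.9 FPKM in shCbx6 (log2 difference −1.73, SE 0.287, limma adjusted p = 0.131). Klf4 was at 91.1 and 96.7 FPKM in shCtl and at 36.7 and 28 FPKM in shCbx6 (log2 difference −1.52, SE 0.177, limma adjusted p = 0.0842). Tfcp2l1 was at 64.8 and 55.6 FPKM in shCtl and at 35.5 and 17.7 FPKM in shCbx6 (log2 difference −1.23, SE 0.331, limma adjusted p = 0.273).

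The core pluripotency genes, in contrast to the naive list, had a median log2 difference of 0.11 over 6 tested genes (0.19 without shCbx6 replicate 2), with 2 higher and 1 lower without overlap. Pou5f1, which encodes OCT4, was at 1359 and 1452 FPKM in shCtl and at 1120 and 1151 FPKM in shCbx6 (limma adjusted p = 0.604). Lin28a was at 80.2 and 80.3 FPKM in shCtl and at 117 and 132 FPKM in shCbx6 (limma adjusted p = 0.235). Utf1 was at 136 and 191 FPKM in shCtl and at 195 and 254 FPKM in shCbx6 (limma adjusted p = 0.539).

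**Figure D4:**
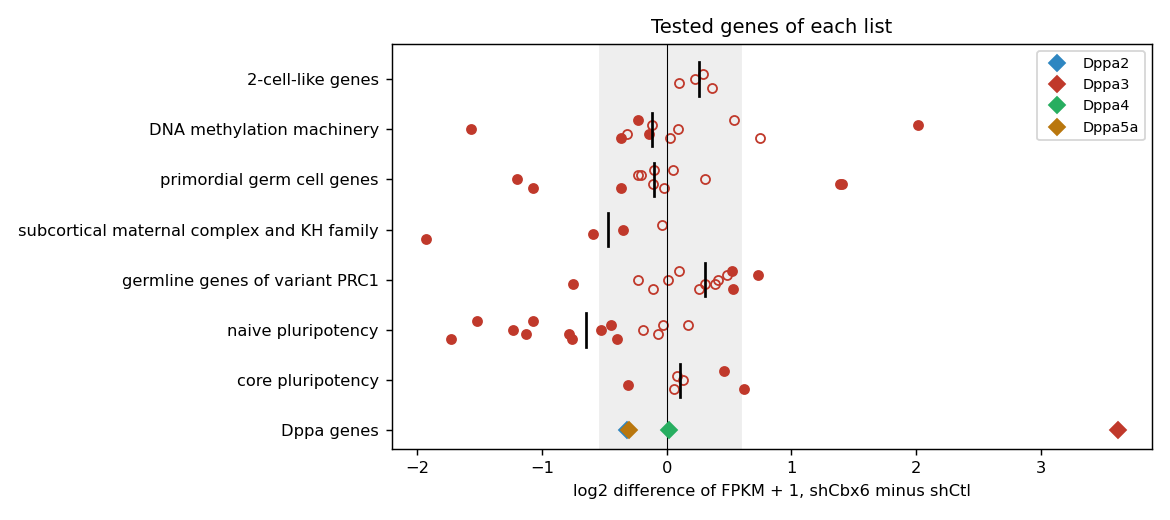
log2 difference of FPKM + 1, shCbx6 minus shCtl (horizontal axis), for each tested gene of the 7 lists and for the 4 Dppa genes (diamonds), with filled circles where the groups do not overlap, a line at each list's median and a grey band from the 5th to the 95th percentile of all tested genes. Dppa3, picked for its rise in this contrast, is at 3.62, the naive pluripotency median is at −0.65, and the band runs from −0.532 to 0.594.

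ESC markers were high in every library, but their sum over 7 genes was lower in both knockdown libraries, at 2536 and 2742 FPKM in shCtl and at 2109 and 2068 FPKM in shCbx6. Most of the sum was Pou5f1, and of the 7 genes Pou5f1, Nanog, Zfp42 and Esrrb were lower and Lin28a higher without overlap, while Sox2 and Sall4 overlapped. Some markers of other cell types were highest in the second knockdown library, as Dppa3 was. The 7 trophectoderm markers summed to 11.1 and 16.3 FPKM in shCtl and to 27.6 and 245 FPKM in shCbx6. The largest values of the list were those of Krt8 and Krt18, keratins of simple epithelia. Krt8 was at 4.81 and 7.25 FPKM in shCtl and at 12.1 and 119 FPKM in shCbx6 (limma adjusted p = 0.428). Krt18 was at 3.66 and 6.91 FPKM in shCtl and at 13.2 and 122 FPKM in shCbx6 (limma adjusted p = 0.389). The keratins were above both controls in the first knockdown library too. The defining genes Cdx2, Elf5 and Gata3 were low but higher in both knockdown libraries. Cdx2 was at 0.0156 and 0.0615 FPKM in shCtl and at 0.114 and 0.511 FPKM in shCbx6. Gata3 was at 0.0301 and 0.0396 FPKM in shCtl and at 0.0944 and 0.489 FPKM in shCbx6. Elf5 did not exceed 0.0533 FPKM, and the groups of Eomes (1.42 to 2.12 FPKM) and Tfap2a (0.398 to 0.645 FPKM) overlapped. None of the 7 markers was listed at 0. The 7 fibroblast markers summed to 1.72 and 1.69 FPKM in shCtl and to 1.37 and 4.67 FPKM in shCbx6, and most of this was Thy1, at 1.68 and 1.64 FPKM in shCtl and at 1.16 and 3.82 FPKM in shCbx6. Col1a1, Col1a2, Col3a1 and Dcn were at or below 0.549 FPKM in every library and higher in both knockdown libraries, Postn did not exceed 0.0108 FPKM, and Lum was listed at 0 throughout. The 6 primitive endoderm markers summed to 2.13 and 1.94 FPKM in shCtl and to 1.84 and 2.72 FPKM in shCbx6. Without overlap Dab2, Gata6 and Sox17 were higher and Sox7 and Pdgfra lower in shCbx6, all at or below 1.67 FPKM. The 4 mesoderm markers summed to 0.506 and 0.343 FPKM in shCtl and to 0.757 and 1.1 FPKM in shCbx6. Without overlap T, Mixl1 and Mesp1 were higher and Gsc lower in shCbx6, all at or below 0.771 FPKM. T was at 0.0984 and 0.0324 FPKM in shCtl and at 0.446 and 0.771 FPKM in shCbx6. The ratio of means was 1.19 for Mixl1 and 1.42 for Mesp1. Gsc was at 0.156 and 0.0615 FPKM in shCtl and at 0.0326 and 0 FPKM in shCbx6. The part of other cell types in the difference of Dppa3 was not tested.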

How the data were processed

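RNA-seq of 2 shCtl and 2 shCbx6 libraries and 4 ChIP-seq peak lists were used. The authors aligned paired-end RNA reads to mm9 with TopHat, discarding reads that did not map to a single place, and deposited FPKM values per RefSeq gene from Cufflinks. FPKM are relative to all fragments, so a change in total RNA per cell is not visible. The sources used here do not give how values of several transcripts became a gene value. They aligned ChIP reads to mm9 with Bowtie, discarding reads without a unique place, and deposited peaks with MACS scores. The study made an anti-HA ChIP in parental ESCs as a control for CBX6, and how controls entered the peak calls is not given in the sources used here. Bowtie, Cufflinks and TopHat are also named in the submitters' processing notes.

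The 4 members and all gene lists were chosen with earlier results of these data known. Of 23290 table entries, 25 were dates instead of symbols and were left out. Genes whose mean reached 1 FPKM in shCtl or shCbx6 were tested on log2(FPKM + 1) with limma 3.58.1 (R 4.3.3; lmFit and eBayes with a trend, two-sided, Benjamini-Hochberg over 11577 genes, no replicate term), checked on simulated data. The study's threshold of 1.5 applied to the ratio of means. Named genes were the members, Cbx6, neighbours within 150 kb at 1 FPKM or more in any library, the 3 largest non-overlapping differences per list and the 5 nearest profiles per member. Mb21d1, Gsta1, Gsta2, Omt2a, Omt2b, Dppa1, Uhrf1, Dnmt1, Prdm1, Dux, Prdm14, Tcl1, Sox2, Sall4, Zfp42, Gata6, Sox17, Sox7, Pdgfra, Cdx2, Elf5, Gata3, Eomes, Tfap2a, T, Mixl1, Mesp1, Gsc, Thy1, Col1a1, Col1a2, Col3a1, Dcn, Postn, Lum and the Zscan4 genes were named for their role or place after their values were seen. Peaks overlapped if they shared 1 base. Coordinates of 94.2% of symbols came from the mm9 annotation. Sequences were read from the mm9 genome. The values of 1 neighbour gene are not reported here.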

Additional observations from a re-analysis of the deposited data

How the results depend on the processing

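With groups of 2 libraries, precision is limited by the spread between libraries, and read depth is unknown. Of 166 alternative values, 138 stayed within 1.5 times the reported count or within 1 SD between libraries, and 28 did not. The cause of these changes was not tested, except that leaving out a library or a filter changes which data enter.

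Genes called by limma, 5 higher and 6 lower, became 11 higher with a pseudocount of 0.1 and 1 higher and 1 lower with no filter on low values. Leaving out each library gave 5 to 266 higher and 8 to 131 lower genes. The highest values came without shCbx6 replicate 1. Without shCbx6 replicate 2 there were 27 higher, without shCtl replicate 1 there were 10 higher and 12 lower, and without shCtl replicate 2 there were 14 lower. By ratio of means, 884 genes were higher and 760 lower, which became 3736 and 2354 with no filter and ranged over 632 to 1413 and 849 to 1178 without each library.

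The replicate numbers are shared between the groups, but the labels do not say that a number marks a batch. Deviations of same-numbered libraries correlated with r = 0.266 over 11577 genes, which are not independent. With the replicate block, 183 genes were higher and 205 lower, 3.35% of all tested genes. Of the 12 tested neighbours 1 was called (Nanog, adjusted p = 0.0451 by limma). Of 61 tested list genes 12 were called (Dnmt3b, Ifitm3, Khdc3, Kit, Klf4, Lin28a, Nanog, Stag3, Tbx3, Tet2, Tfap2c and Tfcp2l1).

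The Dppa3 log2 difference was 3.10 to 4.15 without each library, 4.05 with a pseudocount of 0.1, 3.61 after quantile normalization and 3.64 after median scaling. That of Dppa2 was −0.34 after quantile normalization and −0.31 after median scaling, outside its very small spread. That of Dppa5a was −0.57 after quantile normalization and −0.47 to −0.13 without each library. Dppa4 stayed between −0.08 and 0.11 without each library and was −0.02 after quantile normalization, so it has no stable direction.

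Within 50 kb, 3 of 4 tested neighbours were lower without overlap (median log2 difference −0.48), against 6 of 12 within 150 kb. Within 300 kb, 9 of 20 were lower and 2 higher without overlap (median log2 difference −0.17). Without each library, the medians ranged over −0.47 to 0.77 for the 2-cell-like list, −0.20 to −0.03 for germ cell genes, −0.93 to −0.47 for naive and 0.11 to 0.19 for core pluripotency genes, and 0 to 11 list genes were called. With peak scores of at least 100, members targeted in CBX6 replicate 1 went from 2 to 0 and neighbours targeted in replicate 2 from 4 to 2.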
